A study of Mus musculus with 8 samples.

Results

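The 31 genes described here encode structural proteins of the sarcomere and of the structures that anchor it, and they were taken by symbol from the 32285 genes listed in the deposited files. They are the ventricular myosin light chains Myl2 and Myl3 and myosin-binding protein C (Mybpc3), the troponins Tnnt2, Tnnt1, Tnni3, Tnni1 and Tnnc1 with tropomyosin (Tpm1), the thin filament end proteins Lmod2 and Tmod1, titin (Ttn) and its cap Tcap, the M-band genes Myom1 and Myom2, the Z-disc genes Actn2, Ldb3, Nebl, Pdlim5, Myoz2, Nexn, Synpo2l and Myot, the costamere and cytoskeleton genes Des, Smpx, Cmya5, Vcl and Sorbs2, and Jph2, Trim63 and Unc45b, which serve the membrane junction, protein turnover and myosin assembly. Every one of the 31 symbols was found, and 30 had at least 50 UMIs in a section. Tnni1 was the exception, with 4 to 12 UMIs per section.

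Hearts came from male wild-type C57BL/6J mice, labelled as 8 weeks old, that had sham surgery or transverse aortic constriction (TAC), a ligature around the aorta that makes the left ventricle pump against a raised pressure. TAC hearts were taken 2, 4 or 6 weeks after surgery (called TAC-2w, TAC-4w and TAC-6w after the week), and the labels give no harvest time for sham. Each condition had 1 tissue section for spatial transcriptomics (ST) and 1 single-cell library. No replicate check was therefore possible, no test between conditions was made, and the 95% intervals given here cover counting error only. The sham and TAC-2w sections share a batch, while the TAC-4w and TAC-6w sections each have a batch of their own, so that batch and condition cannot be told apart for these sections. The sections held 1228 to 2193 spots over tissue, 12605071 to 27584064 UMIs outside the 13 mitochondrially encoded genes, and a mitochondrial share of 42.2% to 51.5%, which was highest in sham. The level of a gene is its UMI count per 1000000 UMIs of the section with the mitochondrial genes left out (CPM). UMIs are counted per transcript end and were not scaled by length. A second scale was the same value within spots of 20000 to 30000 UMIs, of which there were 488 in sham, 1309 in TAC-2w, 371 in TAC-4w and 383 in TAC-6w. The labelled tissue was checked by 6 cardiomyocyte markers that are not among the 31 genes (Myh6, Ryr2, Atp2a2, Pln, Ckm and Mb), and they summed to 56662 CPM in sham, 53520 CPM in TAC-2w, 40010 CPM in TAC-4w and 50989 CPM in TAC-6w. Of these, Myh6 is itself a sarcomere gene, with 15103 CPM in sham and 6523 CPM in TAC-4w.

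In the sarcomere, thick filaments of myosin slide along thin filaments of actin. Calcium binding to troponin C moves tropomyosin and opens the thin filament to myosin, and the light chains tune the myosin lever. Titin spans from the Z-disc, where alpha-actinin cross-links the thin filaments, to the M-band, where myomesin cross-links the thick filaments, and desmin filaments and costameres tie the Z-discs to each other and to the cell membrane. A spot covers several cells and parts of cells, so fewer cardiomyocytes and less RNA per cardiomyocyte cannot be told apart in these values.

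RefSeq promoter windows on GRCm38.p6 were used to show the sequence before the start of genes that part from each other in the sections. Of the 31 genes, 27 had a window, and Myom2, Tcap, Nexn and Myot had none. The 250 bases before the start are printed for the light chain genes Myl2 (first listed start; chr5:122092474-122092723, plus strand) and Myl3 (chr9:110763428-110763677, plus strand), which were lower than sham in each TAC section, and for Myoz2 (chr3:123034988-123035237, minus strand) and Des (chr1:75360042-75360291, plus strand), which had the highest ratios of the 31 genes in TAC-4w. Capitals mark letters of 4 muscle or cardiac motifs searched on both strands: the MEF2 type, the M-CAT type, the GATA type and the CArG box.
Myl2: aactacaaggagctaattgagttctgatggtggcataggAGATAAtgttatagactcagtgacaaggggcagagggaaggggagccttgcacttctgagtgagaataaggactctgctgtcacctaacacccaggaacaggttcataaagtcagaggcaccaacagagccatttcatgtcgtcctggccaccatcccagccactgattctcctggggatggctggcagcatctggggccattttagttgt
Myl3: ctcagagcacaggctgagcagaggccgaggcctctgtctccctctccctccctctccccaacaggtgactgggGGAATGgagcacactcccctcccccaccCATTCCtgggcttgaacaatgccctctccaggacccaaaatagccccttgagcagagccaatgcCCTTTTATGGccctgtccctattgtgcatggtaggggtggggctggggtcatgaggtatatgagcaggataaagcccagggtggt
Myoz2: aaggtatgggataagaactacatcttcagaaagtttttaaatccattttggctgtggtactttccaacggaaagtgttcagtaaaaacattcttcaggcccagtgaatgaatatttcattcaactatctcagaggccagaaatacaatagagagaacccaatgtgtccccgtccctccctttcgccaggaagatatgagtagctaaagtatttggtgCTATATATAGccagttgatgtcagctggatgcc
Des: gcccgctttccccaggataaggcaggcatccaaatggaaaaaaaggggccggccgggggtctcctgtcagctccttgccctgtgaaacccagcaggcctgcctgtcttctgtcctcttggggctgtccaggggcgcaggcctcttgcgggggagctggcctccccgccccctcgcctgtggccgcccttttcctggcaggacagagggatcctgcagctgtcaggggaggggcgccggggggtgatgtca

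In the Myl2 window, the capitals are a GATA type match. The window of its other listed start (chr5:122092939-122093188, plus strand) has no match. Which start gave the Myl2 transcripts counted in the sections was not determined, so neither window is shown to be the promoter in use. A gene with several windows is counted below where any of them held the motif. Myl3 has 2 M-CAT type matches, 1 of them on the opposite strand, and a CArG box. The capitals in Myoz2 are a MEF2 type match, and the Des window has no match. Over the 27 genes, the MEF2 type motif, which starts with CTA and ends with TAG and has 4 bases of any kind between them, was in 6 (22.2%; Mybpc3, Ttn, Ldb3, Myoz2, Smpx and Synpo2l), against 3.70% of the 27025 symbols with a window and 3.2% of the 32851 windows. The CArG box was in 5 (18.5%; Myl3, Myom1, Ldb3, Nebl and Vcl), against 1.62% of symbols and 1.47% of windows. The M-CAT type motif, written as CATTCC, was in 8 (29.6%; Myl3, Tnnt2, Tnnc1, Tpm1, Nebl, Tmod1, Trim63 and Vcl), against 14.4% of symbols and 12.6% of windows. The GATA type motif, written as AGATAA, was in 6 (22.2%; Myl2, Tnnt2, Myom1, Nebl, Smpx and Cmya5), against 11.4% of symbols and 9.99% of windows. No motifs overlapped in the windows of the 27 genes. These are matches of letters and were not tested as binding sites.

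The summed level of the 31 genes was 87652 CPM in sham, 79574 CPM in TAC-2w, 70042 CPM in TAC-4w and 75889 CPM in TAC-6w, which is 8.77%, 7.96%, 7.00% and 7.59% of the UMIs outside mitochondrial genes. All 3 TAC sections were below sham, and TAC-4w was the lowest. The ratio to sham of this sum was 0.908 (95% interval 0.906 to 0.910) in TAC-2w, 0.799 (0.797 to 0.801) in TAC-4w and 0.866 (0.864 to 0.868) in TAC-6w, and in spots of 20000 to 30000 UMIs it was 0.909, 0.791 and 0.872. The choice of total matters for these ratios, because the sham section had the highest mitochondrial share. With the mitochondrial genes in the total, every ratio was 1.17 times higher in TAC-2w, 1.19 times in TAC-4w and 1.15 times in TAC-6w, and the ratio of the sum was 1.06, 0.953 and 0.997, so that it turned above 1 in TAC-2w. Ratios between 2 of the 31 genes do not depend on the total, and the comparison of the genes with each other leads the rest of the account.

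Most of this sum came from few genes. The 10 genes with the highest sham levels, which were Myl2, Myl3, Tpm1, Tnni3, Tnnt2, Tnnc1, Tcap, Ttn, Mybpc3 and Des, made up 90.9% of it in sham, and Myl2 alone 24.9%. The other 20 genes with at least 50 UMIs made up 9.07%. The plot of levels by section shows both the wide range of levels and the small differences between sections for most genes.

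**Figure D1:**
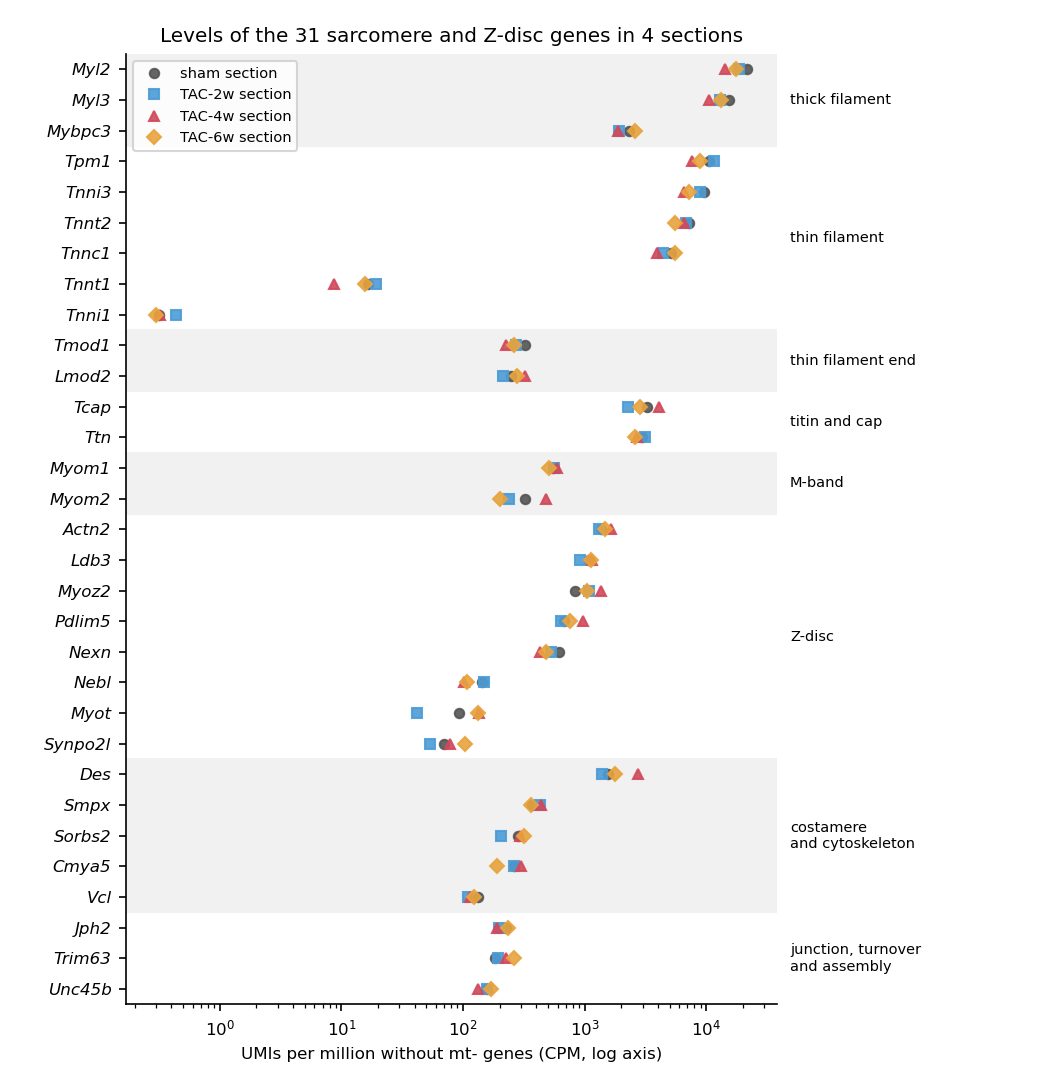
Level of each of the 31 genes in the 4 sections, as UMIs per 1000000 without mitochondrial genes on a log axis, with 1 marker per section and the genes grouped by role. Myl2 lies between 14220 and 21800 CPM and Tnni1 at the lower end below 1 CPM, and for most genes the 4 markers lie close together.

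The thick filament genes had the lowest summed ratio of the role groups in TAC-4w. Their 3 members summed to 39429 CPM in sham, 33566 CPM in TAC-2w, 26641 CPM in TAC-4w and 33263 CPM in TAC-6w, with ratios of 0.851, 0.676 and 0.844. Myl2 (ENSMUSG00000013936, chr5:122092724-122113473), the regulatory light chain of ventricular myosin, had 21800 CPM in sham, 18540 CPM in TAC-2w, 14220 CPM in TAC-4w and 17461 CPM in TAC-6w. Its level was lower in each TAC section, with ratios of 0.850 (0.847 to 0.854), 0.652 (0.649 to 0.656) and 0.801 (0.797 to 0.805). Myl3 (ENSMUSG00000059741, chr9:110763678-110769802), the essential light chain of the same myosin, had 15297 CPM in sham, 13098 CPM in TAC-2w, 10557 CPM in TAC-4w and 13196 CPM in TAC-6w, and its ratios were 0.856, 0.690 and 0.863. The light chains thus stayed close to each other: for every 1000 UMIs of Myl3 there were 1425 of Myl2 in sham, 1416 in TAC-2w, 1347 in TAC-4w and 1323 in TAC-6w. Mybpc3, which links myosin to the thin filament, did not follow them in TAC-6w. Its level was 2332 CPM in sham, 1929 CPM in TAC-2w, 1865 CPM in TAC-4w and 2606 CPM in TAC-6w, so that the ratio was below 1 in the first pair of TAC sections and 1.12 in TAC-6w.

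The thin filament genes summed to ratios of 0.973 in TAC-2w, 0.758 in TAC-4w and 0.839 in TAC-6w. Tpm1, the tropomyosin of the heart, had 10581 CPM in sham, 11505 CPM in TAC-2w, 7626 CPM in TAC-4w and 8953 CPM in TAC-6w. It was the only one of the 6 genes with the highest sham levels that was above sham in TAC-2w, at 1.09 (1.08 to 1.09). Tnni3, cardiac troponin I, had 9552 CPM in sham, 8843 CPM in TAC-2w, 6501 CPM in TAC-4w and 7281 CPM in TAC-6w, with ratios of 0.926, 0.681 and 0.762. Tnnt2, cardiac troponin T, had 7270 CPM in sham, 6856 CPM in TAC-2w, 6576 CPM in TAC-4w and 5522 CPM in TAC-6w, and its lowest ratio, 0.760, was that of TAC-6w. Tnnc1, the calcium sensor troponin C, had 5102 CPM in sham, 4411 CPM in TAC-2w, 3941 CPM in TAC-4w and 5507 CPM in TAC-6w, which was 1.08-fold of sham in TAC-6w.

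The subunits of the troponin complex therefore did not keep 1 ratio to each other across the sections. For every 1000 UMIs of Tnnt2 there were 1314 of Tnni3 in sham, 1290 in TAC-2w, 989 in TAC-4w and 1319 in TAC-6w. For Tnnc1 it was 702 in sham, 643 in TAC-2w, 599 in TAC-4w and 997 in TAC-6w. The first ratio was lowest in TAC-4w with the other sections close together, and the second was highest in TAC-6w.

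The slow skeletal isoforms of troponin, which the developing heart uses, were rare in all 4 sections. Tnnt1 (slow skeletal troponin T) had 16.6 CPM in sham, 19.3 CPM in TAC-2w, 8.77 CPM in TAC-4w and 15.5 CPM in TAC-6w, from 162 to 531 UMIs. For every 1000 UMIs of Tnnt2 this was 2.28 (1.98 to 2.61), 2.81 (2.57 to 3.06), 1.33 (1.14 to 1.56) and 2.81 (2.55 to 3.10) UMIs, so that TAC-4w lay below the other sections. Tnni1 (slow skeletal troponin I) had 4 UMIs in sham, 12 in TAC-2w, 6 in TAC-4w and 8 in TAC-6w, or 0.0332 to 0.0500 for every 1000 UMIs of Tnni3, and its intervals overlapped in all sections. A difference in Tnni1 was not detectable at this depth. On chromosome 7, Tnnt1 (chr7:4504569-4515975) lies next to Tnni3 (chr7:4518305-4522718), and on chromosome 1 Tnni1 (chr1:135783033-135810989) lies near Tnnt2 (chr1:135836315-135852268), by coordinates on GRCm38.p6.

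The proteins at the thin filament end parted from each other. Tmod1, which caps the pointed ends of actin filaments, had 323 CPM in sham, 275 CPM in TAC-2w, 228 CPM in TAC-4w and 260.8 CPM in TAC-6w, with ratios of 0.853, 0.706 and 0.808. Lmod2, a leiomodin that lets these ends grow, had 249 CPM in sham, 212 CPM in TAC-2w, 321 CPM in TAC-4w and 276 CPM in TAC-6w, with ratios of 0.853, 1.29 and 1.11. In TAC-2w the ratios were equal within their intervals, and in TAC-4w and TAC-6w they lay on opposite sides of 1.

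Titin and its cap behaved unlike each other as well. Ttn had 2976 CPM in sham, 3144 CPM in TAC-2w, 2715 CPM in TAC-4w and 2592 CPM in TAC-6w, with ratios of 1.06, 0.912 and 0.871. Tcap (telethonin), which joins titin molecules at the Z-disc, had 3246 CPM in sham, 2274 CPM in TAC-2w, 4113 CPM in TAC-4w and 2870 CPM in TAC-6w, with ratios of 0.700, 1.27 and 0.884. Tcap had 1091 UMIs for every 1000 of Ttn in sham, 723 in TAC-2w, 1515 in TAC-4w and 1107 in TAC-6w, so that sham and TAC-6w were close while TAC-2w lay below and TAC-4w above them. In spots of 20000 to 30000 UMIs the ratio of Ttn to sham was 1.06 in TAC-4w, on the other side of 1.

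At the M-band, Myom1 kept its level while Myom2 did not. Myom1 had 544 CPM in sham, 558 CPM in TAC-2w, 595 CPM in TAC-4w and 508 CPM in TAC-6w, with ratios of 1.03, 1.09 and 0.932. Myom2 (M-protein) had 325 CPM in sham, 241 CPM in TAC-2w, 482 CPM in TAC-4w and 202 CPM in TAC-6w. Its ratios were 0.740 (0.711 to 0.769), 1.48 (1.43 to 1.54) and 0.620 (0.595 to 0.646), which makes it the gene with the lowest ratio of the 30 in TAC-6w. In UMIs for every 1000 of Myom1, Myom2 was at 597 in sham, 431 in TAC-2w, 811 in TAC-4w and 397 in TAC-6w.

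The sum of the Z-disc genes was near sham in TAC-2w and above it in TAC-4w, with ratios of 0.969, 1.2 and 1.07. In TAC-2w the median ratio of these 8 genes was 0.902, with 6 of them below 1. Actn2, the alpha-actinin that cross-links thin filaments, had 1375 CPM in sham, 1313 CPM in TAC-2w, 1642 CPM in TAC-4w and 1462 CPM in TAC-6w, and Ldb3, which binds it, had 1080, 918, 1144 and 1130 CPM. Myoz2 (calsarcin-1; ENSMUSG00000028116, chr3:123006206-123035003), which binds alpha-actinin and calcineurin, had 829 CPM in sham, 1086 CPM in TAC-2w, 1367 CPM in TAC-4w and 1045 CPM in TAC-6w. It was above sham in every TAC section, with ratios of 1.31 (1.28 to 1.34), 1.65 (1.61 to 1.69) and 1.26 (1.23 to 1.29). Pdlim5, a PDZ and LIM domain protein of the Z-disc, had 678 CPM in sham, 636 CPM in TAC-2w, 961 CPM in TAC-4w and 755 CPM in TAC-6w, and so had its largest ratio, 1.42, in TAC-4w. Nexn (nexilin, an actin-binding protein) went the other way, with 613 CPM in sham, 531 CPM in TAC-2w, 433 CPM in TAC-4w and 481 CPM in TAC-6w, and Nebl (nebulette) had ratios of 1.05, 0.716 and 0.753.

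The Z-disc genes of low level had some of the most uneven ratios. Myot (myotilin, an alpha-actinin binding protein) had 93 CPM in sham, 41.6 CPM in TAC-2w, 135 CPM in TAC-4w and 133 CPM in TAC-6w. It was the gene with the lowest ratio of the 30 in TAC-2w, 0.448 (0.412 to 0.486), and was above sham in TAC-4w and TAC-6w, at 1.46 (1.36 to 1.56) and 1.43 (1.34 to 1.53). For every 1000 UMIs of Actn2 there were 67.6 of Myot in sham, 31.7 in TAC-2w, 82.4 in TAC-4w and 91.2 in TAC-6w. Synpo2l, an actin-associated protein of the Z-disc, had 70.1 CPM in sham, 53.6 CPM in TAC-2w, 77.9 CPM in TAC-4w and 103 CPM in TAC-6w, and its ratio of 1.48 (1.37 to 1.59) was the highest of the 30 in TAC-6w.

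Among the costamere and cytoskeleton genes, Des made the difference to the sum. Des (desmin; ENSMUSG00000026208, chr1:75360292-75368579), the intermediate filament around the Z-discs, had 1550 CPM in sham, 1384 CPM in TAC-2w, 2741 CPM in TAC-4w and 1766 CPM in TAC-6w, with ratios of 0.893 (0.878 to 0.909), 1.77 (1.74 to 1.80) and 1.14 (1.12 to 1.16). The ratio in TAC-4w was the highest of the 30 genes. For every 1000 UMIs of Myl2 there were 71.1 of Des in sham, 74.6 in TAC-2w, 193 in TAC-4w and 101 in TAC-6w, and 38.0, 58.6, 96.1 and 59.8 of Myoz2. The other members of this group lay between 0.722 and 1.19 of sham: Vcl (vinculin) was below sham in each TAC section, with ratios of 0.830, 0.865 and 0.938, and Smpx, Cmya5 and Sorbs2 were on both sides of 1. Of the remaining genes, Trim63 (MuRF1, a ubiquitin ligase that marks sarcomere proteins for breakdown) had 184 CPM in sham, 193 CPM in TAC-2w, 225 CPM in TAC-4w and 264 CPM in TAC-6w, with ratios of 1.05, 1.23 and 1.44. Jph2, which holds the sarcoplasmic reticulum at the T-tubule, and Unc45b, a myosin chaperone, lay between 0.841 and 1.09.

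Read gene by gene against sham, few of the 30 genes passed a 1.5-fold difference with a counting interval that left out 1. In TAC-2w, none was at least 1.5-fold higher (1.42% of 11410 genes of at least 50 UMIs were) and 1 was at least 1.5-fold lower (9.81% of genes), which was Myot. In TAC-4w, Des and Myoz2 were at least 1.5-fold higher (7.43% of 11192 genes) and Myl2 and Tnnt1 at least 1.5-fold lower (6.23%). In TAC-6w, none was higher (8.1% of 11939 genes) and Myom2 was lower (2.02%). In spots of 20000 to 30000 UMIs the counts were 0 higher (1.52%) and 1 lower (10.9%) in TAC-2w, 2 higher (6.25%) and 3 lower (7.25%) in TAC-4w, and 0 higher (5.69%) and 1 lower (2.28%) in TAC-6w. The counts of the members are small, at most 3 of 30 genes (10%, for the lower genes of TAC-4w in those spots). The median ratio of the 30 genes was 0.880 in TAC-2w, 0.975 in TAC-4w and 0.961 in TAC-6w, beside 0.885, 0.974 and 1.07 over all the genes of at least 50 UMIs in either section.

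The sizes of the ratios spread most in TAC-4w. The standard deviation of the log2 ratio over the 30 genes was 0.28 in TAC-2w, 0.45 in TAC-4w and 0.31 in TAC-6w. In TAC-2w, 22 of the 30 ratios were below 1, in TAC-4w 15 and in TAC-6w 16. The median ratio of all genes, given above, was below 1 in TAC-2w as well. Scaled so that the median ratio over genes of at least 50 UMIs in both sections was 1, the counts were 15, 15 and 18. The 22 of TAC-2w is thus no trait of these genes apart from the others. With mitochondrial genes in the total these counts were 12, 10 and 10, since every ratio moves with the total. Under that total and 8 other choices of total, spots and scaling, Myl2, Myl3 and Tmod1 were below sham in all 3 TAC sections and Myoz2 above it in all 3. The remaining genes changed side in at least 1 section or under at least 1 of these choices.

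To see which genes kept proportion, each ratio was divided by the median ratio of the 30 genes in its section. A gene was counted as in proportion where the smaller of its ratio and this median was at least 0.8 of the larger, and a gene more than 1.5-fold from it as shifted. In TAC-2w 25 of 30 genes were in proportion (70.7% of all genes lay in the same range), in TAC-4w 13 (66.7% of all genes) and in TAC-6w 21 (66.9%). In spots of 20000 to 30000 UMIs the counts were 23, 12 and 24 (67.3%, 61% and 71.1% of all genes). The range is centred on the median of the members themselves, so their share and that of all genes are not on equal terms. The share of the members in TAC-4w was below that of all genes on both scales.

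Mybpc3, Ttn, Myom1, Actn2, Ldb3, Vcl, Sorbs2, Jph2 and Unc45b, 9 genes in all, were in proportion in all 3 TAC sections, and Myom1, Actn2, Ldb3 and Vcl were so on both scales. None of the 6 genes with the highest sham levels was among them. Shifted genes were Myot below the median in TAC-2w (7.98% of all genes were shifted in either direction), Des, Myoz2 and Myom2 above it and Tnnt1 below it in TAC-4w (13.6%), and Synpo2l above it and Myom2 below it in TAC-6w (12%). In spots of 20000 to 30000 UMIs, Tnnt1 joined Myot in TAC-2w from above (9.72%). In TAC-4w the shifted genes were 8 (14.9%), with Des and Myoz2 above the median and Myl2, Myl3, Tnnt1, Tnni3, Tpm1 and Tmod1 below it, while Myom2 was no longer among them. In TAC-6w Myom2 alone was shifted (8.62%). The ratios to sham in TAC-4w were 1.71 for Des, 1.69 for Myoz2, 0.659 for Myl2 and 0.483 for Tnnt1 on this scale, close to those over all spots, while the median ratio of the 30 genes was 0.975 over all spots and 1.05 in these.

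**Figure D2:**
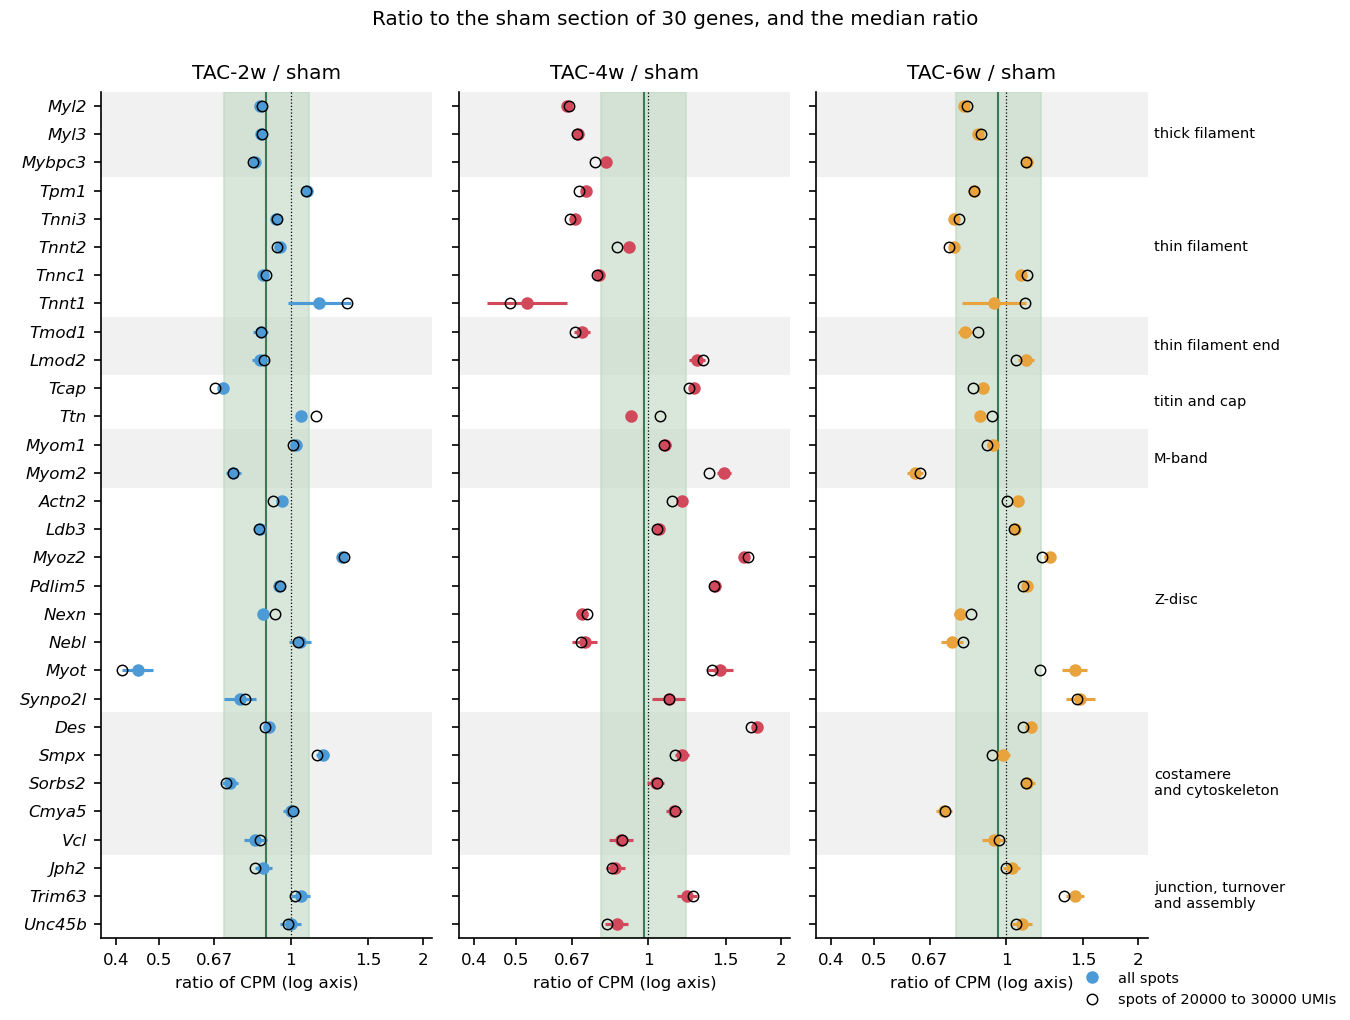
Ratio to sham of 30 genes in the 3 TAC sections (log axis; Tnni1 left out for its few UMIs), with filled points for all spots, lines for the 95% counting interval and open points for spots of 20000 to 30000 UMIs. The green line is the median ratio and the green band the range counted as in proportion, in which lie 25 genes in TAC-2w, 13 in TAC-4w and 21 in TAC-6w, and in TAC-4w the filament genes lie left of the line and Des and Myoz2 right of the band.

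The thick and thin filament genes among the 31 were compared with the others as sums. The 8 thick and thin filament genes with at least 50 UMIs summed to 71949 CPM in sham, 65200 CPM in TAC-2w, 51294 CPM in TAC-4w and 60541 CPM in TAC-6w. All 8 had a ratio below 1 in TAC-4w, against 6 in TAC-2w and 6 in TAC-6w. The other 22 genes summed to 15703 CPM in sham, 14373 CPM in TAC-2w, 18748 CPM in TAC-4w and 15348 CPM in TAC-6w, and 15 of them had a ratio above 1 in TAC-4w, against 6 in TAC-2w and 12 in TAC-6w. The groups overlapped in TAC-4w, where 7 of these 22 genes were below 1, and Tmod1 (0.706), Nexn (0.707) and Nebl (0.716) lay below the filament gene Tnnt2 (0.905). The summed ratios of the filament genes and of the other genes were 0.906 and 0.915 in TAC-2w, 0.713 and 1.19 in TAC-4w, and 0.841 and 0.977 in TAC-6w. In spots of 20000 to 30000 UMIs they were 0.701 and 1.21 in TAC-4w. The median ratios were 0.895 and 0.880 in TAC-2w, 0.705 and 1.13 in TAC-4w, and 0.854 and 1.04 in TAC-6w. Most of the higher sum of the other genes in TAC-4w came from Des, Tcap and Myoz2. This split into groups was not among the planned comparisons. With mitochondrial genes in the total, Tnnt2 turned above 1 in TAC-4w and the other 7 filament genes stayed below it.

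Most of the filament genes are also of high level, with the exception of Tnnt1 at 16.6 CPM in sham. The part of level in the lower sum was not tested. The 6 members of at least 5000 CPM in sham, which are all filament genes, had a median ratio of 0.705 in TAC-4w with 6 of 6 below 1, and the 16 other genes of that level in the section had a median of 0.816 with 13 of 16 below 1. Members of 500 to 5000 CPM had a median of 1.14 with 3 of 10 below 1, beside 1.02 with 126 of 270 below 1 for other genes of that level. Among members of 50 to 500 CPM the median was 1.11 with 5 of 13 below 1, beside 0.976 with 1338 of 2428. Haemoglobin and other red blood cell markers were 21675 CPM in sham and 6826 CPM in TAC-4w, and leaving haemoglobin and ribosomal-RNA-like genes out of the total gave a summed ratio of the 31 genes of 0.785 in TAC-4w.

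Some other sarcomere and myofibril genes had ratios farther from 1 in the same section. Of a list of 70 such genes, 61 had at least 50 UMIs in either section in TAC-4w, of which 12 were at least 1.5-fold higher and 5 at least 1.5-fold lower, with a median ratio of 1.04. In TAC-2w it was 2 higher and 7 lower of 61, with a median of 0.904, and in TAC-6w 9 higher and 2 lower of 63, with a median of 1.13. The shares of all genes given above, 7.43% and 6.23% in TAC-4w, are the background for these counts too. The highest ratios in TAC-4w were those of Myh7, the slow myosin heavy chain, at 146 (138 to 155; 86.4 CPM in sham and 12643 CPM in TAC-4w), of Acta1, skeletal alpha-actin, at 9.82 (227 and 2224 CPM), and of Ankrd1, a titin-binding stress protein, at 4.5. The lowest were those of Myh7b at 0.408, of Myh6, the fast myosin heavy chain, at 0.432 (15103 CPM in sham and 6523 CPM in TAC-4w), and of Lmod3 at 0.465. Myh6 and Myh7 are near-identical neighbours, so reads that fit both may be lost or split between them.

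The extremes of this list differed between sections. In TAC-2w they were Lmod1 at 0.440, Myh7 at 0.478 and Tpm2 at 0.510, and Fhl2 at 1.46, Acta1 at 1.55 and Myl1 at 1.70. In TAC-6w they were Lmod1 at 0.508, Neb at 0.590 and Mylk3 at 0.743, and Ankrd1 at 4.52, Ankrd2 at 6.19 (2.28 to 23.6, from 4 UMIs in sham) and Acta1 at 26.6 (25.7 to 27.7). None of the 31 genes had a ratio outside 0.448 to 1.77 in any section over all spots. Leaving Myh6, Myh7, Acta1, Ankrd1 and the natriuretic peptides out of the total, a choice made after the data were seen, gave summed ratios of the 31 genes of 0.808 in TAC-4w and 0.871 in TAC-6w.

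Cardiomyocyte genes outside the sarcomere give a reference for these sums. A list of 24, such as myoglobin and genes of calcium handling and energy supply, had summed ratios of 1.05 in TAC-2w, 0.941 in TAC-4w and 0.939 in TAC-6w. These sums were above those of the 31 genes (0.908, 0.799 and 0.866) in each section. The median ratio of the 24 was 1.01, 0.971 and 0.946, beside 0.880, 0.975 and 0.961 for the 30 genes. By median the list was thus above the members in TAC-2w alone. Sums follow the genes of high level, such as Fabp3 with a ratio of 1.90 in TAC-4w. The 6 cardiomyocyte markers used to check the tissue, which include Myh6, had summed ratios of 0.945 in TAC-2w, 0.706 in TAC-4w and 0.900 in TAC-6w. Markers of other cell types moved as well. Summed fibroblast markers were 1352 CPM in sham, 1164 CPM in TAC-2w, 1487 CPM in TAC-4w and 1880 CPM in TAC-6w, with 6 of 6 markers lower in TAC-2w. Endothelial markers summed to 2482, 2056, 2752 and 3793 CPM, smooth muscle and pericyte markers to 1204, 890, 881 and 1086 CPM, and macrophage markers to 289, 225, 453 and 355 CPM. In TAC-4w the fibroblast and endothelial sums were above sham, but the median ratios of their markers were 0.828 and 0.692. At least 1.5-fold lower there were 2 of 6 fibroblast and 3 of 6 endothelial markers, and 0 were at least 1.5-fold higher. Skeletal muscle markers were near 0 in every section, at 5.71 to 6.82 CPM in all for 10 genes. Of the atrial markers, Sln was at 0 UMIs in 3 sections and 2 in the fourth, and Myl7 at 0.399 to 2.76 CPM. The part of these cell types in the ratios of the 31 genes was not tested.

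Each section was cut at the median row and column of its spots into 4 blocks. Levels in them show how even the genes are within a section. The blocks share a section and are not replicates. They also differ in depth, with medians per spot from 5581.5 to 21144 UMIs in sham and from 6757 to 34658 UMIs in TAC-6w. The 4 blocks of sham ranged from 21289 to 22136 CPM for Myl2, and those of TAC-4w from 13729 to 14946 CPM. For Des the blocks ranged from 1523 to 1600 CPM in sham and from 2676 to 2775 CPM in TAC-4w, and for Myoz2 from 792 to 869 CPM and from 1325 to 1468 CPM. For these 3 genes the 2 sections did not overlap. Myot was the least even of the genes named, with 67.8 to 108 CPM over the blocks of sham and 29.4 to 47.7 CPM over those of TAC-2w, which still did not overlap.

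In TAC-2w, all 4 blocks lay below all 4 of sham for 16 genes (22.8% of all genes) and above them for Tpm1, Myoz2 and Smpx (7.37%). In TAC-4w it was 11 genes below (14.9%), 7 of them filament genes, and 12 above (13.4%), none of them a filament gene. In TAC-6w it was 11 below (6.92%) and 7 above (17.7%). Many of the genes behind these shares are of lower level than the members, and with few UMIs counting error alone can make blocks overlap. No share of genes of the members' level was counted, so the members' counts and these shares are not on equal terms. Myl2, Myl3, Tnni3, Tmod1 and Nexn had all blocks below sham in each TAC section, and Myoz2 had all blocks above it in each. Block levels depend on the total as well. With mitochondrial genes in it, the ratio over the whole TAC-2w section was 1.08 for Tnni3 and 1.01 for Nexn.

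The ratio of desmin and calsarcin to the light chains could be read in single spots. In spots of 20000 to 30000 UMIs, the median count of Des and Myoz2 UMIs per 1000 UMIs of Myl2 and Myl3 was 63.5 in sham (percentiles 5 and 95: 41.8 and 95.2), 77.6 in TAC-2w (55.1 and 105), 161 in TAC-4w (116 and 223) and 86.4 in TAC-6w (61.8 and 122). In TAC-4w, 370 of 371 spots (99.7%) lay above the 95th percentile of sham, against 12.9% of spots in TAC-2w and 28.5% in TAC-6w. Des and Myoz2 were taken for their high ratios in TAC-4w, and Myl2 and Myl3 because they were lower than sham. Those ratios were counted over spots that include these. A higher median in TAC-4w therefore followed from the choice of genes and is not a separate test of the difference. What the spots add is its spread within the section: in spots of this depth, 371 of the 1228 of TAC-4w, nearly every spot showed it. Spots of 1 section share its library and batch and are not replicates.

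**Figure D3:**
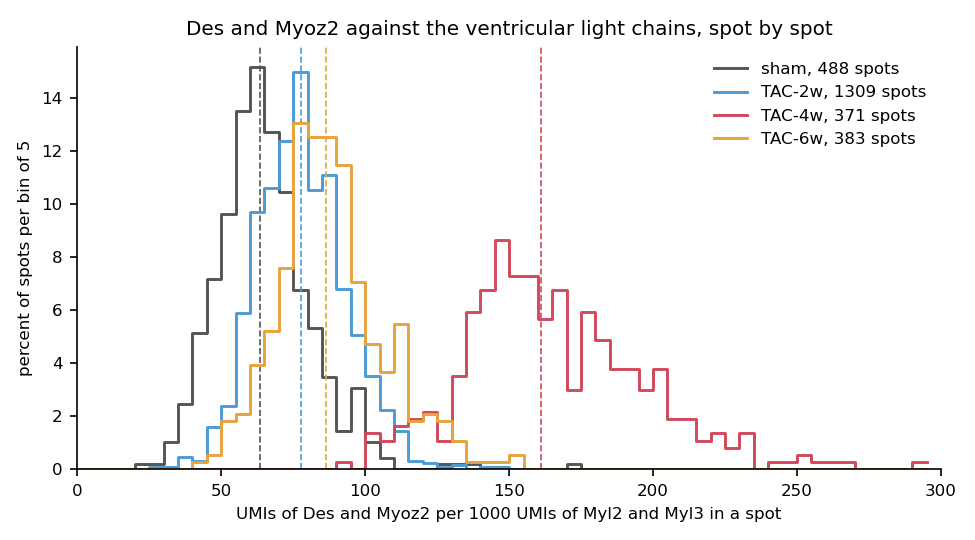
Distribution over spots of the UMIs of Des and Myoz2 per 1000 UMIs of Myl2 and Myl3, in spots of 20000 to 30000 UMIs, as percent of spots per bin of 5, with a dashed line at each section's median. The medians are 63.5 in sham, 77.6 in TAC-2w, 161 in TAC-4w and 86.4 in TAC-6w, and the TAC-4w curve lies right of nearly all sham spots.

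Within a section the genes varied together only weakly from spot to spot. The correlation of each gene with the sum of the other 30, on log2(CPM + 10) over the spots of 20000 to 30000 UMIs, had a median over the 31 genes of 0.13 in sham (488 spots), 0.04 in TAC-2w (1309 spots), 0.18 in TAC-4w (371 spots) and 0.10 in TAC-6w (383 spots). It was highest for Myl3 in sham (0.64) and for Myl2 in TAC-2w (0.44), TAC-4w (0.59) and TAC-6w (0.62). It was lowest for Vcl in sham and TAC-6w, at −0.14 and −0.12. These values describe the spots, which share a library and a range of depth, and for the genes of low level they hold few UMIs per spot.

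The single-cell libraries show the same genes away from muscle cells. After filters they held 7965 cells in sham, 6293 in TAC-2w, 6531 in TAC-4w and 5399 in TAC-6w, with medians of 9131, 10717, 4449 and 4743 UMIs. The sham and TAC-6w libraries share a batch, and TAC-2w and TAC-4w each have their own, so batch and condition cannot be told apart for the latter. Cells were clustered without the 31 genes and the 70 further sarcomere genes, and the clusters were named from markers. The make-up of the libraries differed widely: sham held 4255 fibroblast-like cells, and TAC-4w held 2432 B cell-like and 1270 neutrophil-like cells. Between 9 and 30 cell barcodes were shared by a pair of libraries, at most 0.359% of a library.

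One small cluster held the 31 genes at high levels. It was led by Myl7, Myl2 and Sln, of which Myl7 and Sln are atrial genes, and it held 107 barcodes in sham, 75 in TAC-2w, 21 in TAC-4w and 11 in TAC-6w. Its median depth was 1479 to 2495 UMIs, 0.249 of that of its cells' own libraries. The 31 genes summed to 90733, 79200, 115200 and 89858 CPM in its parts from sham and from weeks 2, 4 and 6, beside 87652, 79574, 70042 and 75889 CPM in the sections, so that TAC-4w was the highest among these parts and the lowest among the sections. Myl7 was at 266 UMIs per 1000 UMIs of Myl2, Myl3, Tnni3, Tnnt2 and Tnnc1 in the sham part of this cluster and 338 in TAC-2w, but at 26.2 in TAC-4w and 0.522 in TAC-6w (1 UMI). The atrial share of this cluster thus differed between the libraries.

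In the 9 named classes other than this cluster and the smooth muscle cell or pericyte-like cells, called non-myocytes here, the 31 genes were at 572 CPM in sham (566 to 578), 639 CPM in TAC-2w (632 to 645), 334 CPM in TAC-4w (327 to 340) and 366 CPM in TAC-6w (358 to 373). These classes held 7386, 5781, 6033 and 5228 cells, and the pooled levels depend on the make-up of each library. In droplet libraries, RNA set free from broken cells is caught with every cell, and RNA from 1 source keeps its genes in 1 ratio whatever the cell. Whether the 31 genes did so was asked first for 5 filament genes of high level, Myl2, Myl3, Tnni3, Tnnt2 and Tnnc1, and then for the other 26 against these 5.

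The 5 filament genes were scarce but widespread in non-myocytes. They summed to 134 CPM in sham, 154 CPM in TAC-2w, 33.3 CPM in TAC-4w and 55.3 CPM in TAC-6w, or 1.16, 1.54, 0.172 and 0.264 UMIs per cell. A UMI of at least 1 of them was in 49.5% of non-myocytes in sham, 52.7% in TAC-2w, 10.2% in TAC-4w and 13.1% in TAC-6w. With every cell thinned to 1000 UMIs, which left out 192, 176, 352 and 226 shallower cells, it was 11.4% (10.7% to 12.2%), 12.3% (11.5% to 13.2%), 2.87% (2.45% to 3.34%) and 4.18% (3.64% to 4.77%). Sham and TAC-2w stood above TAC-4w and TAC-6w before and after thinning. Classes differed too: macrophage-like cells had 307 CPM of these genes in sham and fibroblast-like cells 78.1 CPM, and after thinning 20.0% (18.2% to 22%) and 6.40% (5.68% to 7.18%) of cells had a UMI of them.

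In pooled non-myocytes, the mix of these 5 genes followed the Myl7-led cluster of the same library more closely than the section. In sham, Tnni3 was 24.5% of their UMIs in non-myocytes, 25.1% in the Myl7-led cluster and 16.2% in the section, and Myl3 was 15.4%, 14.4% and 25.9%. In TAC-4w, Tnni3 was 12.2%, 14.2% and 15.6%, and Myl2 was 39.4%, 38.6% and 34.0%. The mix differed between classes of a library. In TAC-2w, Myl2 was 16.5% in fibroblast-like and 30.2% in macrophage-like cells, beside 24.8% in the cluster. Tnnt2 was 31.1% and 20.9% there, beside 22.3%. In TAC-4w, Myl2 was 65.3% in neutrophil-like cells. In TAC-6w, the Myl2 shares of fibroblast-like and macrophage-like cells, 38.2% and 43.95%, had overlapping intervals. Whether 1 source gave these UMIs in all classes was not tested. Over the 4 libraries together, UMIs of the 5 genes in non-myocytes were 0.912 (Tnni3) to 1.10 (Tnnt2) times those that the mix of the library's own cluster gives, and 0.582 (Myl3) to 1.87 (Tnnt2) times those that the mix of the section gives. These expected UMIs are scaled to the sum of the 5 genes, so their weighted mean is 1 by construction. The section and the library of a condition are different preparations, and for the libraries the study's methods name both a 3′ and a 5′ kit.

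**Figure D4:**
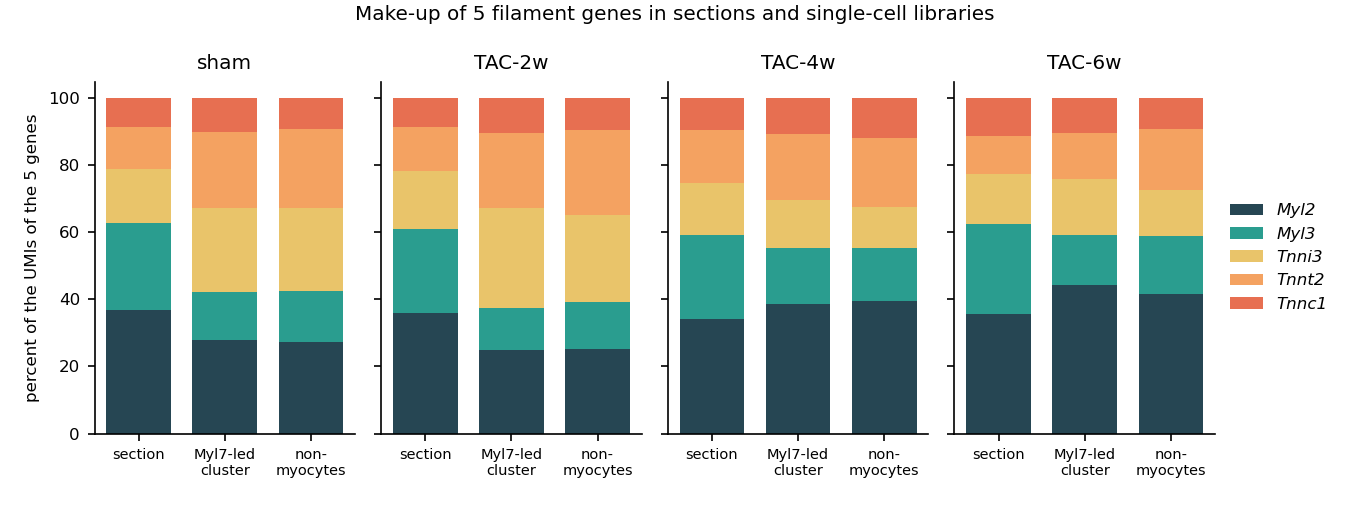
Share of Myl2, Myl3, Tnni3, Tnnt2 and Tnnc1 in their summed UMIs (percent, stacked bars), for the section, the Myl7-led cluster and the non-myocytes of each condition. In sham and TAC-2w the bars of non-myocytes, which pool classes of unlike mix, resemble those of the Myl7-led cluster, with Tnni3 at 24.5% and 25.9%, more than those of the section.

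Atrial genes and Myh6, which are not among the 31, did not all keep the ratio of the Myl7-led cluster to the 5 filament genes. For every 1000 UMIs of the 5 filament genes, non-myocytes held 188 UMIs of Myl7 in sham, 250 in TAC-2w and 24.2 in TAC-4w, beside 266, 338 and 26.2 in the Myl7-led cluster and 0.0121, 0.00771 and 0.0661 in the sections. In TAC-6w, where that cluster held 11 barcodes and 1 UMI of Myl7, non-myocytes had 34.8. Nppa, an atrial natriuretic peptide gene, was at 478 in non-myocytes of sham and 783 in those of TAC-2w, above the 260 and 389 of the cluster. In TAC-4w and TAC-6w Nppa was closer to the cluster, at 101 and 106 beside 89.8 and 89.3. Myl4, an atrial light chain gene, was at 204 in non-myocytes of sham beside 225 in the cluster, but at 232 in those of TAC-4w beside 17.5. Myh6 was at 249 in non-myocytes of sham and 363 in those of TAC-2w, beside 21.1 and 59.2 in the cluster and 256 and 275 in the sections. In TAC-4w it was at 147, beside 16.3 in the cluster and 156 in the section. It thus lay closer to the section than to the cluster in sham, TAC-2w and TAC-4w. In TAC-6w it was at 56.5, well below the 259 of the section and above the 5.22 of the cluster (10 UMIs).

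The other 26 genes did not follow 1 ratio to the 5 filament genes in non-myocytes. Against the mix of the section, 19 of the 26 had more than 2 times the UMIs expected from the 5 filament genes, 6 were within 2-fold (Mybpc3, Myom2, Actn2, Tcap, Ldb3 and Trim63) and Myot was below, with 3 UMIs where 27.7 were expected. Against the mix of the library's own Myl7-led cluster, 20 were more than 2-fold above and 6 within 2-fold (Tcap, Myoz2, Lmod2, Smpx, Trim63 and Myot). Tcap and Trim63 were within 2-fold on both. Tpm1, a filament gene of high level that is not among the 5, was at 6.38 times the expected UMIs against the section and 3.37 times against the cluster. Tnnt1, Tnni1, Nebl, Pdlim5, Tmod1, Nexn, Cmya5, Vcl, Sorbs2, Jph2 and Unc45b, 11 genes, were more than 10-fold above on both. The mix of the cluster gave only 3.24 expected UMIs for Vcl and 1.62 for Tnni1, so that the size of these folds is uncertain. Tnni1 had 46 UMIs in non-myocytes. The same counts were not made over all genes, so the counts of 19, 20 and 11 have no background to be set against.

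**Figure D5:**
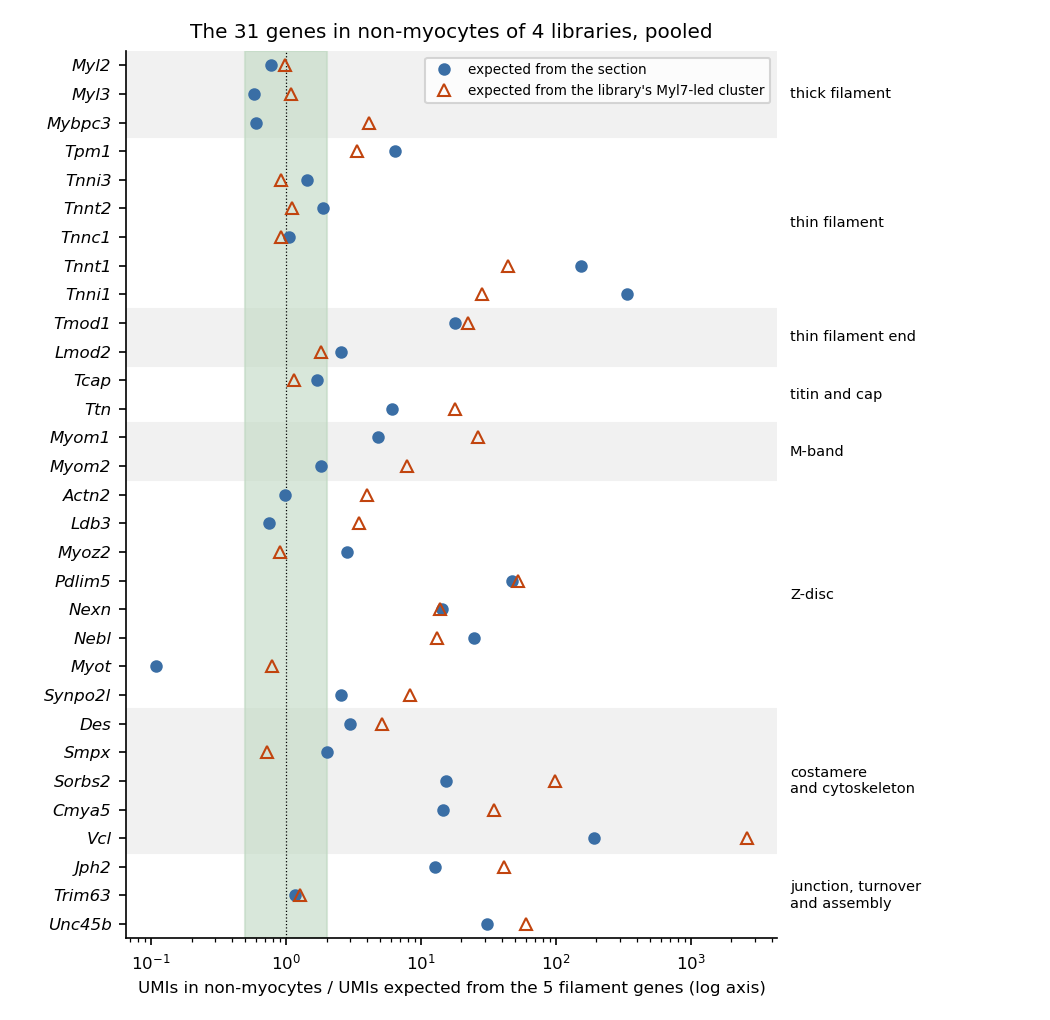
UMIs of each of the 31 genes in the non-myocytes of the 4 libraries together, divided by the UMIs expected from the 5 filament genes Myl2, Myl3, Tnni3, Tnnt2 and Tnnc1 (log axis), with filled points for the section's mix, open triangles for that of the library's Myl7-led cluster and a band of 2-fold on either side of 1. The 5 filament genes lie within the band, and the expected UMIs are scaled to their sum, so their weighted mean is 1 by construction. Of the others, 11 genes lie more than 10-fold above 1 on both. Vcl is at 192 against the section and 2633 against the cluster, the latter from 3.24 expected UMIs.

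A handful of genes thus made up most UMIs of the 31 in non-myocytes. Tpm1 had 25239 UMIs there (27.2% of the UMIs of the 31), Pdlim5 12011 (12.9%), Vcl 8539 (9.20%) and Ttn 6790 (7.31%), together 56.6%, while the same 4 genes were 16.3% to 19.3% of the 31 in the sections. The 5 filament genes were 21.4% in non-myocytes and 59.7% to 67.3% in the sections. Vinculin anchors actin at adhesions of many cell types, and non-muscle cells also use tropomyosin for their actin filaments.

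These genes were unevenly spread over the classes. Unc45b was at 144 CPM in endothelial cell-like cells and at most 2.04 CPM in the other non-myocytes, and Sorbs2 was at 101 CPM in endothelial cell-like cells and at most 6.28 CPM in the other non-myocytes. Nebl was at 74.7 CPM in endothelial cell-like and 46.7 CPM in T cell-like cells. Actn2 was at 50.4 CPM in T cell-like cells and at most 7.54 CPM in the other non-myocytes. Tmod1 was at 45.1 CPM in macrophage-like cells, and Vcl at 299 CPM in platelet-like and 105 CPM in endothelial cell-like cells, above the 7.22 CPM of the Myl7-led cluster. Tnnt1 was at 81.7 CPM in platelet-like cells, from 59 UMIs in TAC-4w and 6 in sham. These levels pool the cells of all 4 libraries, whose make-up differs.

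Smooth muscle cell or pericyte-like cells held more of the 31 genes than any non-myocyte class, with 6597 CPM in sham (76 cells), 9702 CPM in TAC-2w (69 cells), 8550 CPM in TAC-4w (7 cells) and 8500 CPM in TAC-6w (19 cells). Their leading members were Tpm1 at 3640 CPM, Sorbs2 at 1473 CPM, Des at 699 CPM, Nexn at 362 CPM, Myom1 at 345 CPM, Vcl at 321 CPM and Tcap at 314 CPM. Tnnt2 was at 227 CPM in them, while Myl2 was at 28.9 CPM and Myl3 at 15.8 CPM. Desmin and tropomyosin are also parts of smooth muscle, so in the sections their levels include vessel walls. Smooth muscle and pericyte markers summed to 1204 CPM in sham and 881 CPM in TAC-4w, and Des was at 1550 CPM in sham and 2741 CPM in TAC-4w. The part of vessel walls in the level of Des was not tested.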

How the data were processed

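The data are 4 Visium sections and 4 droplet libraries of mouse heart, with 1 section and 1 library for each condition. UMIs of each gene were counted by the authors for every spot or barcode with Space Ranger and Cell Ranger on mm10 and deposited as counts without normalization. The matrix headers name versions 1.2.0 and 6.0.0, and the labels 1.3.1 and 7.0.0. The deposited positions of spots served for blocks of a section and interior spots. Whether the libraries hold cells, as in the study's methods, or nuclei, as in the labels, was not settled, and the word cell is used. No column of a sample outside the series was found (0).

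Levels are UMIs per 1000000 without the 13 mt- genes. Intervals at 95% are exact (Poisson for levels, conditional binomial for ratios, Clopper-Pearson for shares) and cover counting error only. With 1 sample per condition no test was made, and a fold of 1.5 with at least 50 UMIs in either section was used instead. The members and the lists were chosen with earlier results of these data known. Values in every section are given for genes shifted more than 1.5-fold from the median ratio, for the 6 highest in sham and for the isoform pairs, and further members were named by role. Of the 70 other sarcomere genes, the 3 highest and 3 lowest ratios per section are named.

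The filters on cells were those of the study: 200 to 6000 genes, 500 to 30000 UMIs, and mitochondrial UMIs under 15%. Doublets were scored with Scrublet through scanpy 1.11.5 at an expected rate of 7%, and the highest 3.2% of scores in each library were removed. Cells were clustered on 30 components of 3000 variable genes at a resolution of 0.25 and named from 6 markers per type. Clusters came from the Leiden method of scanpy with its igraph option, intervals from scipy 1.17.1, and tables from pandas 2.3.3 and numpy 2.4.6 under Python 3.11.15. The intervals were tried on counts simulated with known folds and counting error alone. That checks their calculation and says nothing of the spread between spots, sections or hearts. Alternatives varied the features in the total, the spots, averaging, scaling, fold, centre, filters on cells, doublet removal, resolution, unit and depth.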

Additional observations from a re-analysis of the deposited data

How the results depend on the processing

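The direction of the summed 31 genes in TAC-2w depended on the scaling: the ratio to sham was 1.06 with mitochondrial genes in the total and 1.03 with a median of ratios over genes, against 0.908. With mitochondrial genes in the total it was 0.953 in TAC-4w and 0.997 in TAC-6w, and with the median of ratios 0.829 and 0.817. Other choices moved it less. It was 0.785 and 0.858 in TAC-4w and TAC-6w with haemoglobin and ribosomal-RNA-like genes also left out, 0.791 and 0.872 in spots of 20000 to 30000 UMIs, and 0.808 and 0.871 without Myh6, Myh7, Acta1, Nppa, Nppb and Ankrd1 in the total, which was added after the data were seen. It was 0.880, 0.811 and 0.897 over the 3 TAC sections in spots under 20000 UMIs, 0.851 in TAC-6w in spots of more than 30000, 0.911 and 0.872 in TAC-2w and TAC-6w in spots with 6 neighbours over tissue, and 0.902 and 0.883 there as a mean over spots.

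Counts of genes moved with the fold and the total. At least 1.5-fold higher were 1, 7 and 3 genes (TAC-2w, TAC-4w and TAC-6w) with mitochondrial genes in the total, 4 in TAC-4w and 1 in TAC-6w as a mean over spots, 4 in TAC-4w by the median of ratios, 4 and 1 in spots of more than 30000 UMIs, and 2 in TAC-6w in spots under 20000. At least 1.5-fold lower was 1 gene in TAC-4w with mitochondrial genes in the total, by the median of ratios and in spots under 20000 or more than 30000 UMIs, and 0 in TAC-6w with mitochondrial genes in the total. At the lower fold tried, where the smaller value is at most 0.8 of the larger, 1, 7 and 4 genes were higher and 5, 10 and 6 lower, and at a fold of 2 there were 0 higher in TAC-4w and 0 lower in TAC-4w and TAC-6w. Shifted genes were 5, 17 and 9 at this lower fold, 0 in each section at 2, 2, 8 and 1 in spots of 20000 to 30000 UMIs, 2 in TAC-2w in spots of more than 30000 UMIs and in spots with 6 neighbours over tissue, and 4 in TAC-6w when centred on the cardiomyocyte reference genes. Those shifted at the lower fold are the genes not in proportion above, where 70.7%, 66.7% and 66.9% of all genes were in proportion. For the other settings of this paragraph, apart from spots of 20000 to 30000 UMIs, no share of all genes was counted. Their counts show how the rule moves and cannot be set against all genes.

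The summed 31 genes in non-myocytes (sham first, then by week) were at 545, 608, 318 and 356 CPM with mitochondrial genes in the total, 619, 720, 314 and 314 CPM after thinning to 1000 UMIs, and 4.93, 6.38, 1.72 and 1.75 UMIs per cell. Without filters they were 604, 689 and 346 CPM in the first 3, and at a resolution of 0.5 554, 630 and 304 CPM in sham, TAC-2w and TAC-6w. Sham and TAC-2w stayed above TAC-4w and TAC-6w under each of these. None of these choices held the cell class fixed, and the make-up of the libraries differs. Endothelial cell-like cells were at 968 CPM in sham and 1109 CPM in TAC-4w, and platelet-like cells at 1504 and 1600.5 CPM. The other non-myocyte classes were lower in TAC-4w than in sham.

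With 1 section and 1 library per condition, depth sets the counting error but says nothing of the spread between hearts, and no replicate could be left out. No paired analysis was possible because the labels give replicate number 1 alone in each group and no test was made. Tnni1, with at most 12 UMIs in a section, could show no difference at this depth. For the 80 other values of sums and counts, the alternative lay within the counting interval or, for counts, within 1.5 times the main value. Of single genes, Myl2, Myl3, Tmod1 and Myoz2 kept their direction in all 3 TAC sections under the 9 alternatives.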
